A study of Mus musculus with 26 samples.

Results

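The comparison asked what adding JAK2V617F does to mouse haematopoietic stem cells (HSCs) that already lack Ezh2. It set 7 libraries labelled with both mutations (the double mutant) against 7 libraries labelled with Ezh2 loss alone, which is 14 of the 26 libraries of the study. The other 12 are 5 control and 7 JAK2V617F libraries, used below only for the levels in all 4 groups and for the interaction. Cells were sorted by flow cytometry from bone marrow and the RNA was made into libraries with Smart-Seq2, a full-length method for very small amounts of RNA. Groups were taken from the genotype label, in which the double mutant is spelled JAK2V17F + Ezh2 loss; it was read as JAK2V617F, as in the design text. Both groups carry the Ezh2 loss. The sources used here do not give the promoter and Cre behind each allele, nor the age, sex and strain of the mice. Whether each replicate is its own animal is not stated in the labels, and p-values therefore describe the spread among these libraries, which may be technical.

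JAK2V617F is an activating mutation of the Janus kinase JAK2, which passes signals from cytokine receptors to STAT transcription factors, and it drives myeloproliferative neoplasms. Ezh2 is the main methyltransferase of Polycomb repressive complex 2, which marks histone H3 at lysine 27 and keeps silent genes silent. HSCs are rare bone marrow cells that renew themselves and give rise to every blood lineage, and loss of Polycomb function in them is known to worsen JAK2V617F disease in mice.

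The titles of the libraries come in 2 styles, and the styles are split unevenly between the groups. All 7 double-mutant titles have a number before the group code (number-first), whereas 2 of the 7 Ezh2 loss titles do (replicates 3 and 4) and 5 have the number after it (number-last; replicates 1, 2, 5, 6 and 7). The sources used here do not say what the style stands for. A gene was therefore reported as passing only if it had an adjusted p under 0.05 over all 14 libraries (limma on log2(RPKM + 1)) and its difference had the same sign against the 2 number-first and against the 5 number-last Ezh2 loss libraries. RPKM scales the reads of a gene by its length and by the depth of the library, and all differences below are double mutant minus Ezh2 loss on the log2(RPKM + 1) scale, which understates the change of low genes.

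Depth was estimated at 17.3 to 29.2 M reads in the double mutant and 7.82 to 24.9 M in Ezh2 loss, where M stands for mega (1e+06), with 10074 to 10840 and 9223 to 10664 genes at an RPKM of at least 1. Depth also differed with title style. Its mean in number-first and number-last libraries was 19.6 and 11.8 M in Ezh2 loss and 17.8 and 11.7 M in JAK2V617F. In control it was 18.8 M in the number-first libraries and 12.2 M in the 1 number-last library. The sorted cells carried HSC markers in both groups. Procr, a surface receptor that marks HSCs, was at 102 to 222 RPKM in the double mutant and 58.9 to 114 in Ezh2 loss, and the stem cell factor receptor gene Kit was at 75.6 to 165 and 82.6 to 123. The surface gene Cd48 was listed at 0 in all 5 control and 6 of 7 JAK2V617F libraries. It was at 0 in only 2 of 7 double-mutant and 4 of 7 Ezh2 loss libraries, with maxima of 65.1 and 33.1 RPKM. Cd3e, which defines T cells, was listed at 0 in all 14 libraries. The basophil gene Mcpt8 was listed at 0 in 7 of 7 double-mutant and 5 of 7 Ezh2 loss libraries, and reached 51.5 RPKM in Ezh2 loss replicate 2. The endothelial gene Cdh5 was listed at 0 in 7 of 7 double-mutant and 6 of 7 Ezh2 loss libraries. Markers of several other cell types varied between libraries. The summed RPKM of 32 neutrophil genes ran from 1363 to 57365 (median 2047) in the double mutant and from 1781 to 41731 (median 20343) in Ezh2 loss. Within the double mutant it was highest in replicates 3 and 4, at 30583 and 57365, against 1363 to 6863 in the other 5; replicates 1, 6 and 7 of Ezh2 loss were at 32316, 41731 and 31530. The summed RPKM of 22 erythroid genes ran from 1810 to 3137 in the double mutant, from 2200 to 2528 in the number-first and from 2838 to 9095 in the number-last Ezh2 loss libraries. The summed RPKM of 25 monocyte, macrophage and dendritic genes was 1705 in double-mutant replicate 7 against 105 to 416 in the other 6, and 185 to 781 in Ezh2 loss, highest in replicate 4. That of 17 T and NK cell genes was 333 in double-mutant replicate 5 against 37.0 to 120 in the other 6, and 13.2 to 634 in Ezh2 loss, again highest in replicate 4. Cd79a, a B cell receptor gene, was at 50.4 RPKM in double-mutant replicate 7 and listed at 0 in the other 6, and was at 11.5 and 2.20 in Ezh2 loss replicates 2 and 7 and listed at 0 in the other 5. The part of these transcripts in the results below was not tested beyond the alternatives given with the counts. In such bulk libraries, fewer cells of a type and less RNA per cell cannot be told apart.

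**Figure D1:**
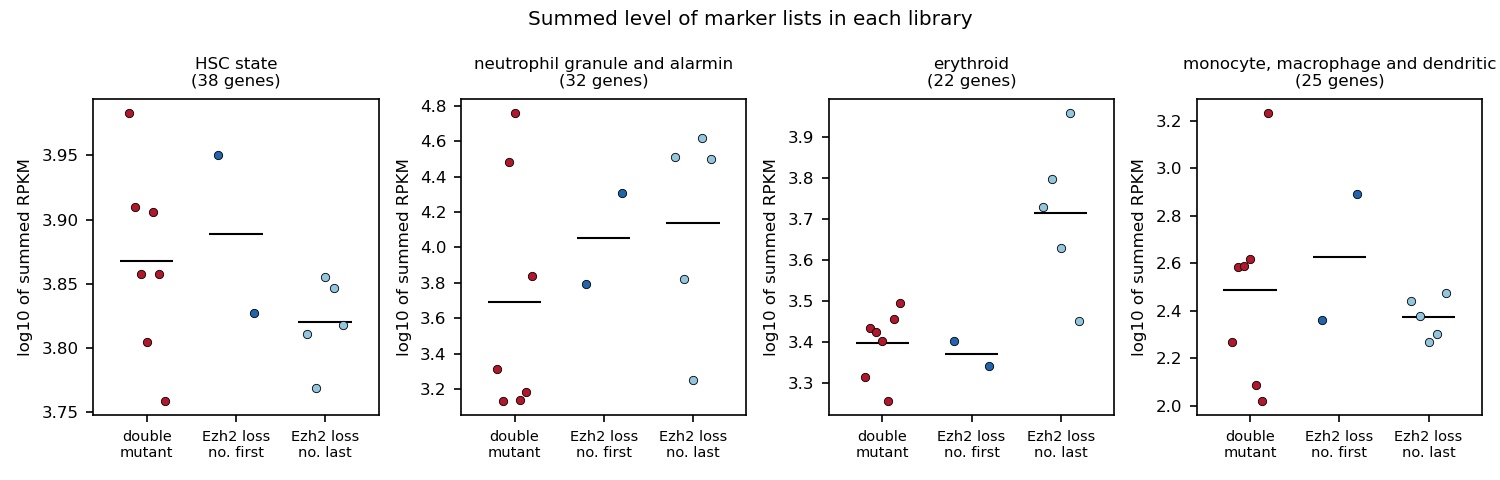
Summed RPKM (log10 axis) of 4 marker lists in each library (points; bars are means of the log10 values), for the 7 double-mutant libraries and the 2 number-first and 5 number-last Ezh2 loss libraries. Double-mutant replicates 3 and 4 stand apart from the other 5 in the neutrophil panel, and 4 of the 5 number-last libraries lie above every other library in the erythroid panel.

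The mutated genes themselves did not separate the groups. Ezh2 (chr6:47530139-47595341, GRCm38) was at 28.3, 13.2, 31.4, 15.1, 11.1, 6.71 and 15.8 RPKM in double-mutant replicates 1 to 7. It was at 14.8 and 27.6 in the number-first and at 5.15, 16.4, 15.4, 31.4 and 12.6 in the number-last Ezh2 loss libraries. The difference was -0.01 (SE 0.41, adjusted p = 0.997), -0.36 against the number-first and 0.13 against the number-last libraries. Transcript of Ezh2 was therefore present in both groups, each of which is labelled as having lost it; the control group was at 23.7 ± 10.4 (SD, n = 5). The labels do not say which part of the gene is removed, and a gene-level value sums all exons, so it does not check the labels. Jak2 (chr19:29251828-29313080) was at 11.3 ± 7.93 (SD, n = 7) against 17.8 ± 9.37 (SD, n = 7), a difference of -0.77 (SE 0.50, adjusted p = 0.466). Gene-level values hold no trace of the V617F base change.

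Of 11268 genes with an RPKM of at least 1 in at least 5 of the 14 libraries, 110 passed, which is 0.976% of those tested. More genes were higher than lower in the double mutant, 83 (0.737%) against 27 (0.24%). The rises ran from 0.67 to 3.33 and the falls from -4.48 to -0.48. At an unadjusted p under 0.05, 1806 genes differed, and with the direction rule 1102 were higher (9.78%) and 474 lower (4.21%). The requirement on direction removed none of the 110, while 6716 of all tested genes (59.6%) met it. In 34 of the 83 rises every double-mutant library lay above every Ezh2 loss library, as did 0.435% of all tested genes, and in 4 of the 27 falls every one lay below, as did 0.16%. The same values gave the p-values that chose these genes, so the separation describes them and is no further evidence. Of the rises, 4 had no Ezh2 loss library at 1 RPKM or more and so met the filter only through the double mutant where they were high, among them Prrg4, Spry4 and Mrgpre below. Of the falls, 9 had symbols of predicted genes, clones or microRNAs, among them the largest.

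The passing genes were smaller in difference against the 2 number-first libraries than against the 5 number-last ones. The median difference of the 83 rises was 0.97 against the former and 1.82 against the latter, and that of the 27 falls was -0.53 and -1.76, where the median of all tested genes was 0.02 and 0.17. Against the number-first libraries, 38 rises were at 1 or more and 6 falls at -1 or less. Within number-first libraries (7 against 2) no gene passed with limma, at 938 genes with an unadjusted p under 0.05, of which 52 were among the 83 rises and 8 among the 27 falls. The 110 genes were chosen with these libraries included and this direction required, so their share here is no separate check. With title style as a covariate over all 26 libraries the count was also 0, at 915 unadjusted. Title style and genotype cannot be told apart in the 14 libraries beyond these values. With a neutrophil score as a covariate, 2 genes passed, at 1499 unadjusted, and without double-mutant replicates 3 and 4 (an alternative added after the data were seen) 18 passed, 14 of them among the 110. Single libraries also moved the count: it fell to between 4 and 13 without double-mutant replicate 2, 4, 5, 6 or 7 or Ezh2 loss replicate 1, 6 or 7, was 18 without Ezh2 loss replicate 5, 58 without double-mutant replicate 1 and 67 without Ezh2 loss replicate 2. It rose to 275 and 324 without Ezh2 loss replicate 3 or 4, the 2 number-first libraries, and was 96 without double-mutant replicate 3. The split moved as well: it was 2 higher and 3 lower without double-mutant replicate 6, 2 and 2 without replicate 2 or 7, 7 and 6 without replicate 4, and 1 and 1 with the neutrophil covariate. All 110 kept their direction in each of these fits except the one with title style, where 108 did. In the number-first fit the rule for passing already requires that direction. The genes that passed in all 14 of these leave-one-out fits, named after their values were seen, were Tspan14, Mrgpre, Lars2 and Mir703; Mrgpre was listed at 0 in all Ezh2 loss libraries.

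**Figure D2:**
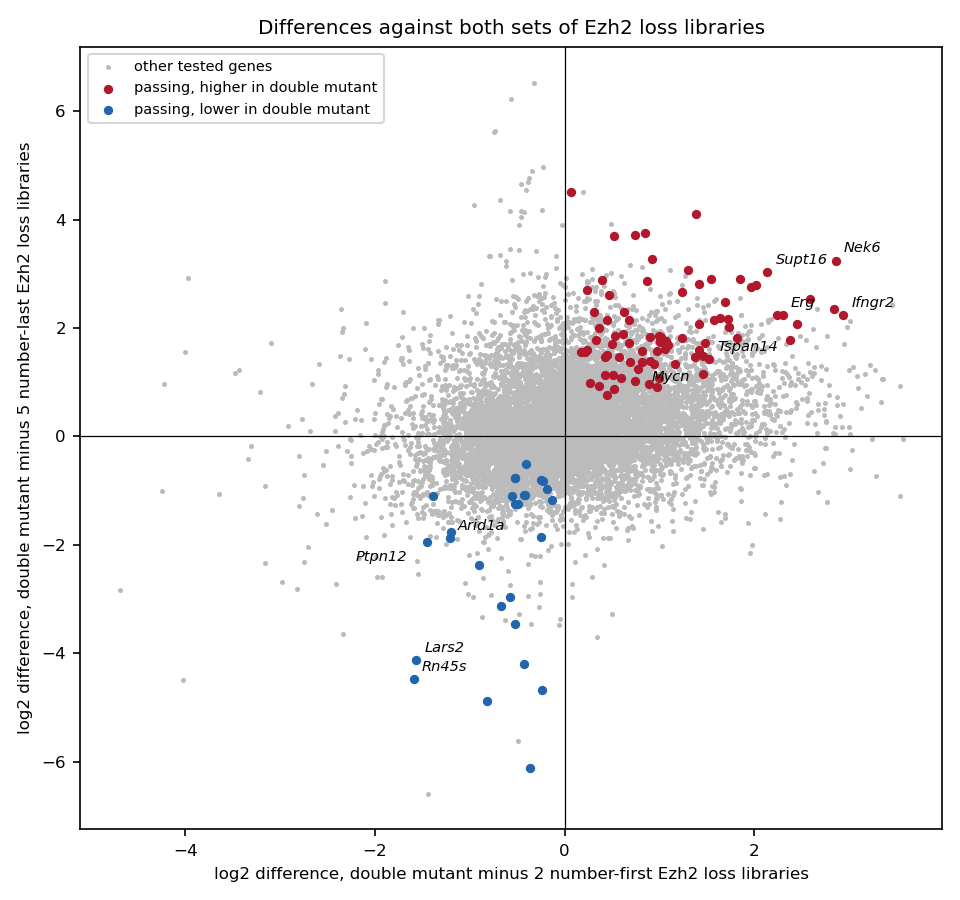
Difference (log2(RPKM + 1) scale) of each of 11268 tested genes against the 2 number-first (horizontal axis) and the 5 number-last (vertical axis) Ezh2 loss libraries, with the 83 rises in red and the 27 falls in blue. All passing genes lie in the 2 quadrants of equal sign; Nek6, Ifngr2, Erg and Supt16 are far from 0 on both axes, while Lars2 and Rn45s lie farther from 0 on the vertical axis.

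Among 38 genes of the HSC state, 3 passed (0.976% of all tested genes did) and all 3 were higher in the double mutant: the ETS factor Erg, the MYC family factor Mycn and the adhesion receptor Gpr56 (Adgrg1). Erg (chr16:95359169-95586593, minus strand), which HSCs need to persist, was at 15.2, 16.4, 20.4, 43.4, 24.4, 36.9 and 20.2 RPKM in the double mutant. It was at 5.36 and 2.95 in the number-first Ezh2 loss libraries and at 4.65, 0, 14.1, 7.55 and 4.38 in the number-last ones. The groups did not overlap, although the double-mutant minimum of 15.2 lay close to the 14.1 of Ezh2 loss replicate 5. The difference in Erg was 2.25 (SE 0.50, adjusted p = 0.0371) and was nearly equal against the number-first (2.30) and the number-last (2.23) libraries.

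Mycn (chr12:12936093-12941914, minus strand), which with Myc supports HSC self-renewal and survival, was at 160.3, 94.2, 107, 98.6, 212, 112 and 138 RPKM in the double mutant. The number-first Ezh2 loss libraries had 86.9 and 59.3 and the number-last ones 57.3, 81.5, 50.4, 43.4 and 26.4, again without overlap. The difference was 1.20 (SE 0.26, adjusted p = 0.0316), with 0.81 and 1.36 against the 2 subsets. Gpr56 was at 279 to 795 against 112 to 330.3, and its groups overlapped. Its difference of 1.42 (SE 0.27, adjusted p = 0.0266) was 0.68 against the number-first and 1.72 against the number-last libraries. Hhex, a homeobox factor of blood and endothelial progenitors named here after its values were seen, was at 172 to 222 against 100.04 to 167 RPKM (0.67, SE 0.15, adjusted p = 0.0406).

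Over the whole HSC list, 26 genes were higher and 12 lower, with a median difference of 0.36; for all tested genes 60.2% were higher and the median was 0.15. Against the number-first libraries alone the list's median was 0.04.

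**Figure D3:**
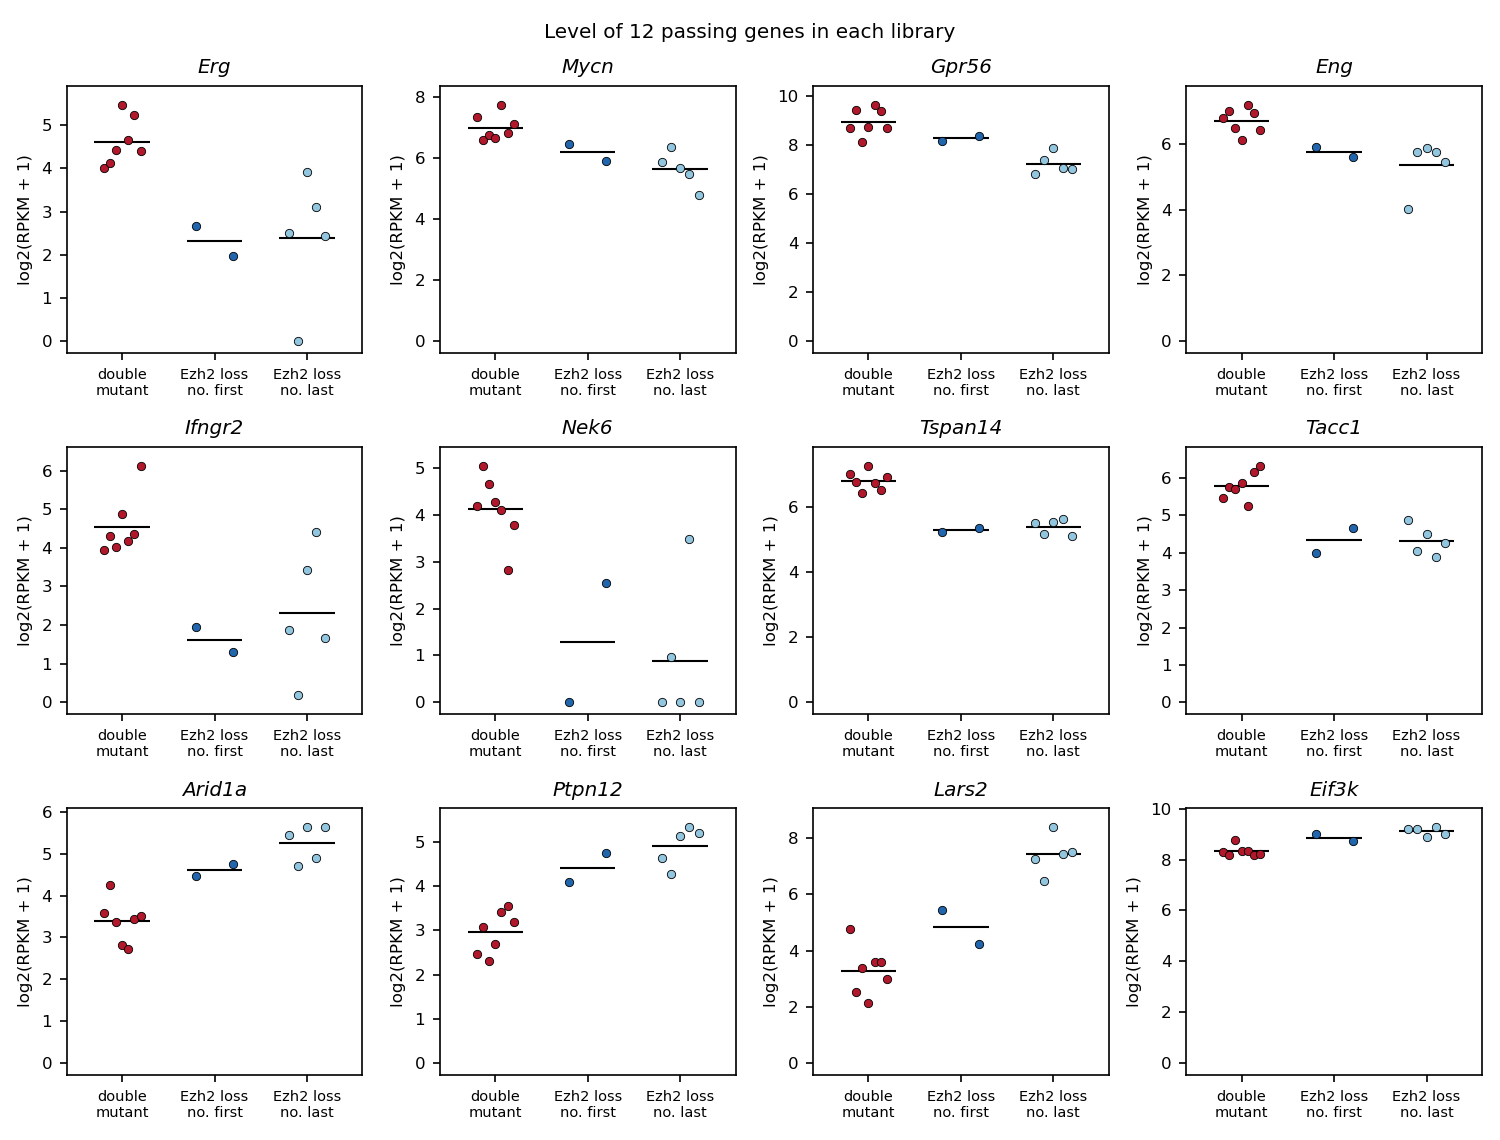
Level (log2(RPKM + 1), axis from just below 0) of 12 passing genes in each library, with the mean of each set as a bar. Erg, Tspan14 and Tacc1 lie at similar levels in the number-first and number-last Ezh2 loss libraries, whereas Gpr56, Lars2 and Eif3k in the number-first libraries lie, on average, between the other 2 sets.

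Among 19 tested cytokine receptor genes 1 passed, Ifngr2, against 0.976% of all tested genes. Ifngr2 (chr16:91547072-91565623) encodes the signalling chain of the interferon-gamma receptor, which works through JAK1 and JAK2. It was at 14.5, 18.9, 15.4, 28.7, 17.1, 19.7 and 68.8 RPKM in the double mutant, at 2.85 and 1.45 in the number-first and at 2.65, 0.129, 9.82, 20.4 and 2.15 in the number-last Ezh2 loss libraries. Replicate 7 of the double mutant was far above the other 6, and replicate 6 of Ezh2 loss lay inside the double-mutant range. That replicate 7 was also the highest double-mutant library in the summed RPKM of the monocyte list (above), of 13 B cell genes (228 against 80.3 to 162) and of 40 interferon-stimulated genes (4215 against 1966 to 3587). The difference in Ifngr2 was 2.44 (SE 0.57, adjusted p = 0.0412), with 2.93 and 2.24 against the 2 subsets. Without double-mutant replicate 7 it was 2.18 and did not pass (adjusted p = 0.0991 in limma). The median of the receptor list was 0.58, with 14 higher (73.7%, against 60.2% of all tested genes) and 5 lower.

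No gene passed among the 11 JAK kinases and STAT factors or the 23 tested feedback and target genes of JAK-STAT signalling. The first list had a median difference of 0.57 (0.47 and 0.59 against the 2 subsets) and 8 of 11 genes higher (72.7%, against 60.2% of all tested genes). Jak3 was at 1.22 (SE 0.52, adjusted p = 0.255). The second list had a median of 0.45, which was 0.13 against the number-first and 0.41 against the number-last libraries. In it Cish, a STAT5-induced inhibitor of cytokine signalling, was at 17.1 to 82.1 RPKM in the double mutant and 15.1 to 43.3 in Ezh2 loss (1.15, SE 0.34, adjusted p = 0.104). Cyclin D3 (Ccnd3) was at 91.9 to 141 RPKM in the double mutant, but the number-first Ezh2 loss libraries, at 109 and 94.2, lay within that range, and only the number-last ones, at 43.2 to 61.3, lay below it. Its difference was 0.90 (SE 0.23, adjusted p = 0.0642), of which 0.18 was seen against the number-first libraries, and with title style as a covariate it turned to -0.16.

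Spry4 and Dusp6 restrain the ERK kinase pathway. Spry4, an inhibitor of receptor tyrosine kinase signalling named after its values were seen, was at 1.23 to 3.79 RPKM in the double mutant, while it was at 0.138 in 1 Ezh2 loss library and listed at 0 in the other 6. It was at 1.44 (SE 0.33, adjusted p = 0.0424), but was tested only because the double-mutant libraries, where it is high, met the minimum of 1 RPKM. Dusp6, the ERK phosphatase, was at 31.1 to 68.2 RPKM in the double mutant. In Ezh2 loss it was at 3.64 and 15 in the number-first and at 11.9, 17.5, 50, 46.1 and 13.9 in the number-last libraries, 2 of which lay inside the double-mutant range. Its difference of 1.42 (SE 0.43) did not pass (adjusted p = 0.109), with 2.49 and 0.99 against the 2 subsets.

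Other surface and signalling genes passed with non-overlapping groups. Tspan14 (chr14:40906445-40966807, minus strand), a tetraspanin that escorts the protease ADAM10, had the smallest adjusted p of all genes and was named for it after the fact. Its level was 131, 108, 85.6, 155, 108, 92.6 and 121 RPKM in the double mutant, 37.2 and 40.0 in the number-first and 44.9, 35.2, 46.2, 49.3 and 33.7 in the number-last Ezh2 loss libraries. The 7 Ezh2 loss libraries thus lay within a narrow band below every double-mutant library. The difference was 1.45 (SE 0.19, adjusted p = 0.00336), or 1.52 and 1.42 against the 2 subsets. Over the 30 alternatives described at the end it ran from 0.52 to 1.52. In 3 of these Tspan14 did not pass, with a largest adjusted p of 0.882 in limma. Eng (endoglin, chr2:32646595-32682669), a co-receptor for TGF-beta family ligands found on HSCs, was at 68.6 to 144 against 15.2 to 58.9 RPKM (1.22, SE 0.28, adjusted p = 0.0399; 0.94 and 1.33). It was the one of 24 tested TGF-beta pathway genes to pass (0.976% of all tested genes did); the list's median was 0.05. Tacc1 (chr8:25154552-25256588, minus strand), a microtubule-associated coiled-coil protein named after its values were seen, was at 37.4 to 79.3 against 13.8 to 28.6 RPKM (1.48, SE 0.26, adjusted p = 0.0197; 1.46 and 1.48).

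A set of 12 rises was taken by the smaller of their differences against the 2 subsets, among genes with a mean of at least 5 RPKM in the higher group; under the same limits, 5 of them were also among the 12 largest over all 14 libraries. Erg and Ifngr2 belong to it. Nek6 (chr2:38511643-38594606), a mitotic kinase, was at 6.13 to 32.2 RPKM in the double mutant. In Ezh2 loss it was listed at 0 in 4 libraries and was at 4.87, 0.949 and 10.2 in the others, so 1 library overlapped. The difference was 3.13 (SE 0.59, adjusted p = 0.0266; 2.85 and 3.24). Supt16 (chr14:52160414-52197416, minus strand), a subunit of the FACT histone chaperone, was at 9.87 to 33.4 against 0 to 7.43 RPKM (2.77, SE 0.53, adjusted p = 0.0266). Lrrc41, a leucine-rich repeat protein, was at 19.6 to 62.2 against 1.35 to 13.8 (2.18, SE 0.42, adjusted p = 0.0266). Tbc1d17, a Rab GTPase-activating protein, was at 27.8 to 58.9 against 4.26 to 31.8, with replicate 2 of Ezh2 loss inside the range (1.93, SE 0.36, adjusted p = 0.0266).

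Other members of that set of 12 were listed at 0 in some Ezh2 loss libraries. Prrg4 was listed at 0 in 6 of 7 Ezh2 loss libraries and at 0.180 in 1, against 0.887 to 23.6 RPKM in the double mutant (2.56, SE 0.52), and like Spry4 it met the filter only through the double mutant. Podnl1 was listed at 0 in 6 and at 4.57 in 1, against 4.15 to 10 (2.48, SE 0.46). Abcb8, a mitochondrial ABC transporter, was at 7.10 to 36.5 against 0 to 13.4 (2.57, SE 0.59). Fam57a (2.61), Tmem150a (2.52) and Kctd7 (2.03) completed the 12, with 1 Ezh2 loss library inside the double-mutant range in Fam57a and Kctd7 and 2 in Tmem150a. Depth bears on such genes, since the double-mutant libraries held a mean of 21.1 M reads against 14 M, and its part in these differences was not tested.

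Nr1h2, Hdac1 and Psme2, all named after their values were seen, also rose. Nr1h2, the oxysterol receptor LXR-beta, was at 50.8 to 92.4 against 6.50 to 37.1 RPKM (1.65, SE 0.32, adjusted p = 0.0266), with 1.24 and 1.82 against the 2 subsets. Hdac1, a histone deacetylase, was at 56.3 to 81.9 in the double mutant, with the number-first Ezh2 loss libraries at 56.7 and 45.7 and the number-last ones at 14.2 to 35.8 (1.20, SE 0.27, adjusted p = 0.0406). Its difference against the number-first libraries was 0.44, and 1 of them lay inside the double-mutant range. Psme2, an interferon-inducible proteasome activator, showed the same layering, with 275 to 546 in the double mutant, 217 and 277 in the number-first and 86.0 to 159.7 in the number-last libraries (1.17, SE 0.24, adjusted p = 0.0297; 0.42 and 1.46).

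Of 22 glycolysis genes 1 passed (0.976% of all tested genes did): Pkm, the pyruvate kinase of growing cells. It was at 187 to 327 RPKM in the double mutant, with 149.7 and 195 in the number-first and 91.2 to 165 in the number-last Ezh2 loss libraries (0.93, SE 0.19, adjusted p = 0.0304; 0.59 and 1.07). The list's median was 0.48, which was 0.25 and 0.51 against the 2 subsets. In all, 18 of its 22 genes were higher, and 12 were higher against both subsets while 0 were lower against both; of all tested genes 35.3% were higher and 24.3% lower against both.

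Leaving out predicted genes, the largest falls were in Rn45s and Lars2, both far higher in the number-last libraries. Lars2 (chr9:123366927-123462666), the mitochondrial leucyl-tRNA synthetase, was at 26, 4.82, 9.33, 3.41, 11.1, 11 and 6.86 RPKM in the double mutant. It was at 42.4 and 18.0 in the number-first and at 152, 88.0, 334, 173 and 181 in the number-last Ezh2 loss libraries. The difference was -3.40 (SE 0.53, adjusted p = 0.0116), but -1.56 against the number-first and -4.13 against the number-last libraries, and double-mutant replicate 1 lay inside the number-first range. Rn45s, the 45S ribosomal RNA precursor, behaved alike at 77.6 to 1100.2 RPKM in the double mutant, 1529.6 and 399.6 in the number-first and 4277 to 8836 in the number-last libraries (-3.65, SE 0.73, adjusted p = 0.0387; -1.59 and -4.48). Ribosomal RNA genes are present in many copies, so the level of Rn45s is uncertain. Group means of the 2 genes ran in the same order. Rn45s was at 359, 2389, 3743 and 4582 RPKM in double mutant, control, JAK2V617F and Ezh2 loss. Lars2 was at 10.4, 60.3, 106 and 141 in the same groups. Whether ribosomal RNA reads add to the Lars2 value was not tested, so its level is uncertain too.

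Arid1a and Ptpn12 fell with non-overlapping groups. Arid1a (chr4:133679008-133756769, minus strand), the DNA-binding subunit of the BAF chromatin remodelling complex, was at 11, 18.1, 9.40, 6.02, 5.66, 9.93 and 10.4 RPKM in the double mutant. The number-first Ezh2 loss libraries had 20.9 and 25.8 and the number-last ones 42.3, 25.2, 48.8, 28.8 and 48.7. The difference was -1.69 (SE 0.33, adjusted p = 0.0266), with -1.21 and -1.88 against the 2 subsets. Ptpn12 (chr5:20986645-21055911, minus strand), a cytoplasmic tyrosine phosphatase, was at 3.93 to 10.7 in the double mutant, at 15.9 and 25.8 in the number-first and at 18.4 to 39.3 in the number-last libraries (-1.81, SE 0.34, adjusted p = 0.0266; -1.46 and -1.95).

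Genes of protein synthesis passed in both directions. Eif4h, a translation initiation factor gene named after its values were seen, was at 159 to 208 RPKM in the double mutant and 61.1 to 137 in Ezh2 loss, without overlap (0.93, SE 0.20, adjusted p = 0.0317; 0.98 and 0.92). Eif3k, a subunit of the translation initiation factor eIF3, was at 291 to 438 against 421 to 622 RPKM (-0.70, SE 0.13, adjusted p = 0.0266; -0.53 and -0.77). Another subunit gene, Eif3f (-0.90, SE 0.19), and the elongation factor gene Eef1b2 (-0.89, SE 0.19) also fell. They were at -0.43 and -0.42 against the number-first libraries, and both at -1.08 against the number-last ones. Eef1a1, named after its values were seen, fell by 0.48 on the log2 scale (SE 0.11), with all 7 double-mutant libraries, at 847 to 1083 RPKM, below all 7 Ezh2 loss libraries, at 1104 to 1532. Of 80 tested cytosolic ribosomal protein genes 4 passed (0.24% of all tested genes passed as falls) and all 4 fell. Among them were Rpl4 (-0.75, with -0.19 and -0.98 against the 2 subsets), Rps3 (-0.65, with -0.25 and -0.81) and Rplp0 (-0.65, with -0.22 and -0.82). Against this, the list's median over all libraries was 0.72, with 52 genes higher (65%, against 60.2% of all tested genes). The median turned between the subsets: it was -0.44 against the number-first and 1.16 against the number-last libraries. Of the 80 genes, 25 were lower against both subsets and 1 was higher, compared with 24.3% lower and 35.3% higher among all tested genes. Near-identical pseudogene copies make the level of each ribosomal protein gene uncertain. The proteasome subunit Psmb4 (-1.04), the snoRNA host Snhg8 (-1.04) and Uchl4 (-2.63) fell too. Against the number-first libraries they were at -0.49, -0.52 and -0.53, and against the number-last ones at -1.25, -1.25 and -3.47.

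Of 55 nuclear-encoded respiratory chain genes 1 passed (0.976% of all tested genes did): Uqcrh, a hinge protein of complex III. It was at 395 to 668 RPKM in the double mutant and 570.0 to 931 in Ezh2 loss (-0.69, SE 0.15, adjusted p = 0.0305; -0.53 and -0.76). The list's median was -0.12. Against both subsets 29 of its genes were lower and 5 higher, compared with 24.3% lower and 35.3% higher among all tested genes.

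The G2 and M phase, erythroid and neutrophil lists had medians below 0 and no passing gene. All but 3 of 34 tested G2 and M phase genes were lower (39.8% of all tested genes were), with a median of -1.04 (-0.62 and -1.25 against the 2 subsets), and 26 were lower against both (24.3% of all tested genes were). The groups overlapped in the summed RPKM of the list, which in the double mutant was 1606 and 995 in replicates 7 and 4 and 163 to 373 in the other 5. In Ezh2 loss it was 116 in replicate 5, the lowest of the 14 libraries, 285 in replicate 3 and 831 to 1968 in the other 5. Single genes of the list varied widely within groups. Mki67, the proliferation antigen, was at 0.126 to 7.50 RPKM in the double mutant and 0.334 to 17.9 in Ezh2 loss (-1.36, SE 0.65, adjusted p = 0.312). The mitotic kinesin gene Kif11 was listed at 0 in 5 double-mutant libraries and 1 Ezh2 loss library (-1.79, SE 0.71, adjusted p = 0.215). S phase genes had a median of -0.11.

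Erythroid genes had a median of -1.0, which was -0.16 against the number-first and -1.43 against the number-last libraries, with 11 of 12 lower (39.8% of all tested genes were). Beta-s, an adult beta-globin transcript, was at 4.32 to 37.5 RPKM in the double mutant, at 18.5 and 37.5 in the number-first and at 877, 3394, 1607, 5786 and 29.7 in the number-last Ezh2 loss libraries. The gap thus lay in 4 number-last libraries, and the difference of -5.12 (SE 1.34) did not pass (adjusted p = 0.0947). Klf1, the erythroid master factor, was at 0 to 5.09 in the double mutant and at 12.4, 10.9, 115, 18.2 and 51.7 in 5 Ezh2 loss libraries, but was listed at 0 in the other 2 (-2.78, SE 0.91, adjusted p = 0.134). Globin genes are near-identical copies, so their split is uncertain.

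Neutrophil genes had a median of -0.71 (-0.63 and -0.83), with 19 of 25 lower (39.8% of all tested genes were). The monocyte, macrophage and dendritic list had 10 of 14 genes higher (60.2% of all tested genes were). Its median was 0.24, with -0.48 and 0.45 against the 2 subsets. The lymphoid priming list had 8 of 10 higher (median 0.22). Against both subsets, 4 monocyte-list genes were higher and 2 lower, and 3 lymphoid-list genes were higher and 2 lower. Among the neutrophil genes S100a8, an alarmin of neutrophils, was at 400.1, 13.1, 12657, 26771, 16.6, 21.7 and 113 RPKM in the double mutant, and 271 to 24491 in Ezh2 loss (-4.36, SE 1.90, adjusted p = 0.287). Replicates 3 and 4 of the double mutant were thus at the level of Ezh2 loss and far above the other 5. Retnlg, another neutrophil gene, was listed at 0 in 4 of 7 double-mutant libraries and was at 81.6, 526 and 6.77 RPKM in replicates 3, 4 and 7. In Ezh2 loss Retnlg was at 12.6 to 449, so double-mutant replicate 4 lay above every Ezh2 loss library. Megakaryocyte and platelet genes had a median of -0.14, with 10 higher and 14 lower (58.3%, against 39.8% of all tested genes).

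Immune and Polycomb lists held no passing gene either. Psme2, the interferon-inducible gene that passed above, is not on these lists, so the statement covers list members only. The 40 interferon-stimulated genes had a median of 0.24, near the 0.15 of all tested genes, and the sign differed between members: Irf7 was at 1.03 (SE 0.44, adjusted p = 0.247) and Xaf1 at -0.94 (SE 0.25, adjusted p = 0.0794). Every double-mutant library, at 16.2 to 39.9 RPKM, lay below every Ezh2 loss library, at 41.7 to 73.5, in Xaf1. MHC class I genes had a median of -0.01, with the peptide-loading gene Tapbp at 0.65 (SE 0.18, adjusted p = 0.0878). The adhesion receptor gene Icam1 was at 2.51 (SE 0.65, adjusted p = 0.0679). The 28 AP-1 and immediate early genes had a median of -0.47 (-0.50 and -0.31).

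The 34 genes of PRC2 and PRC1 had a median of 0.11, with 22 higher (64.7%, near the 60.2% of all tested genes) and 12 lower. Ezh1, the other methyltransferase of PRC2, was at 5.19 to 45.3 RPKM in the double mutant and 0.191 to 11.3 in Ezh2 loss (1.5, SE 0.61, adjusted p = 0.224). Suz12, a core subunit of PRC2, was at 0.759 to 13.7 against 5.28 to 26.7 (-1.47, SE 0.52, adjusted p = 0.165). Of 32 genes known as Polycomb-repressed or fetal, 10 were expressed enough to test and 8 of these were higher (80%, against 60.2% of all tested genes; median 0.62; 0.53 and 0.51). Flt3, a cytokine receptor of lymphoid-primed progenitors, was at 2.01 to 18.1 RPKM against 0 to 13.2 (1.67, SE 0.61, adjusted p = 0.179).

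**Figure D4:**
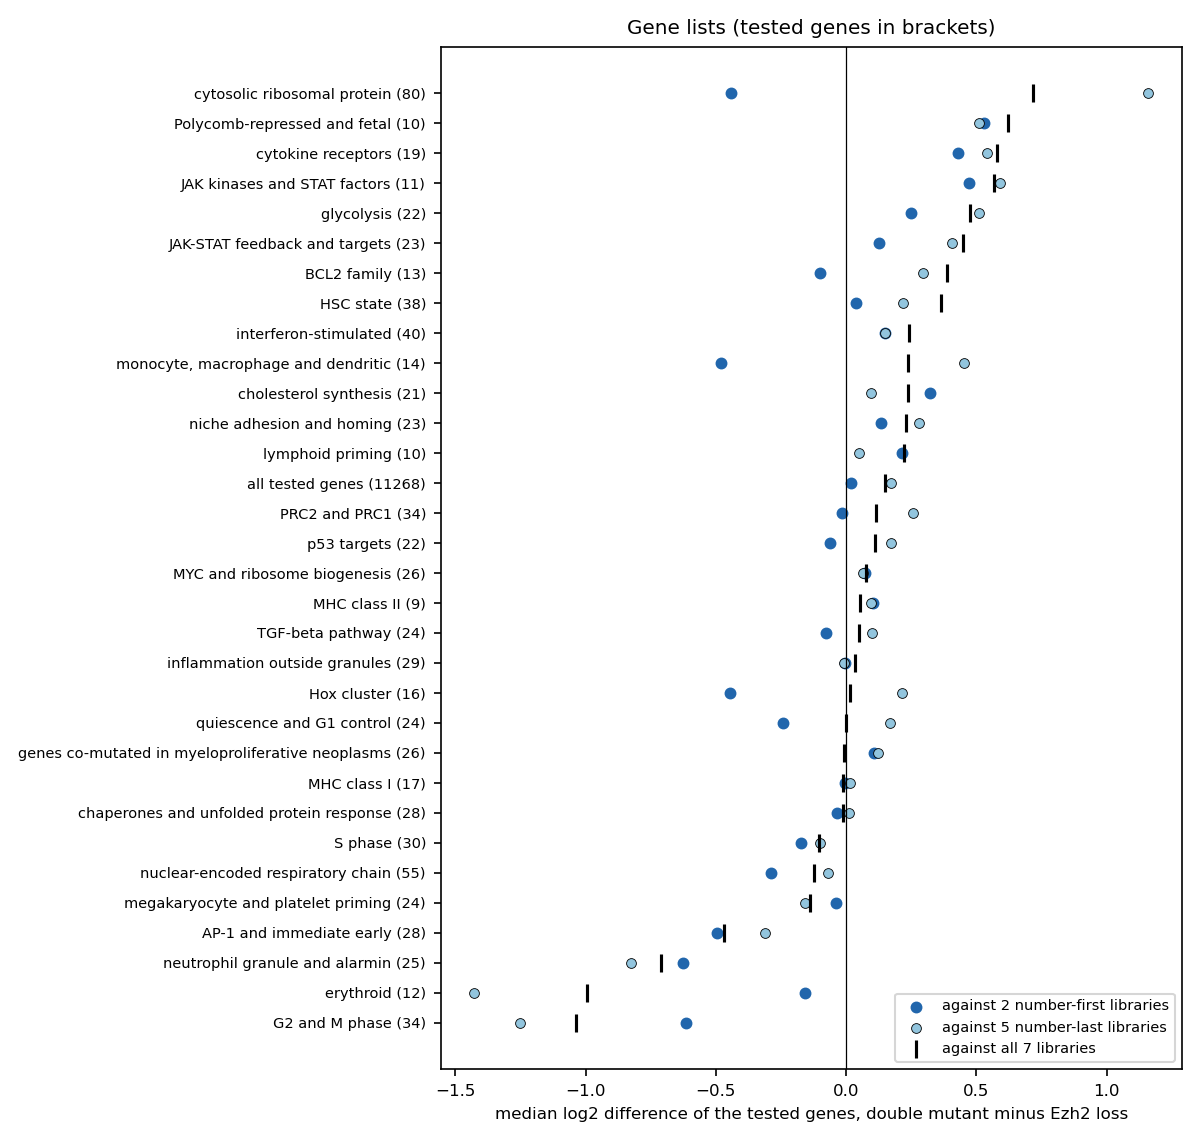
Median log2 difference of the tested genes of each list with at least 9 of them, against the 2 number-first libraries (dark points), the 5 number-last libraries (light points) and all 7 Ezh2 loss libraries (ticks). The ribosomal protein list has medians of opposite sign against the 2 subsets, and the G2 and M phase list is below 0 against both.

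Levels in all 4 groups put several of these differences beside the control. Erg was at 25.3 ± 10.8 RPKM in the double mutant and 5.58 in Ezh2 loss, where 1 library was listed at 0, and at 16.7 ± 9.12 in control (SD, n = 5) and 7.86 ± 4.69 in JAK2V617F (SD, n = 7). Mycn was lowest in Ezh2 loss, at 57.9 ± 21, against 124 ± 47.5 in control, 114 ± 49.9 in JAK2V617F and 132 ± 42.6 in the double mutant, 3 groups that lay within 1 SD of each other. Tspan14 was at 81.7 ± 28.3 in control, 40.9 ± 5.96 in Ezh2 loss and 114 ± 23.5 in the double mutant. In JAK2V617F its mean was 39.4, near that of Ezh2 loss, over a range of 0 to 107 with 1 of 7 libraries listed at 0. Arid1a was at 16.1 ± 6.88 in control and 10.1 ± 4.10 in the double mutant, against 32.7 ± 14.1 in JAK2V617F and 34.4 ± 11.9 in Ezh2 loss. Within the JAK2V617F group the 2 number-first libraries, at 13.8 and 18.2, lay below the 5 number-last ones, at 28.3 to 53.4, and the number-last control library, at 26, lay above the other 4, at 8.73 to 20.1.

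**Figure D5:**
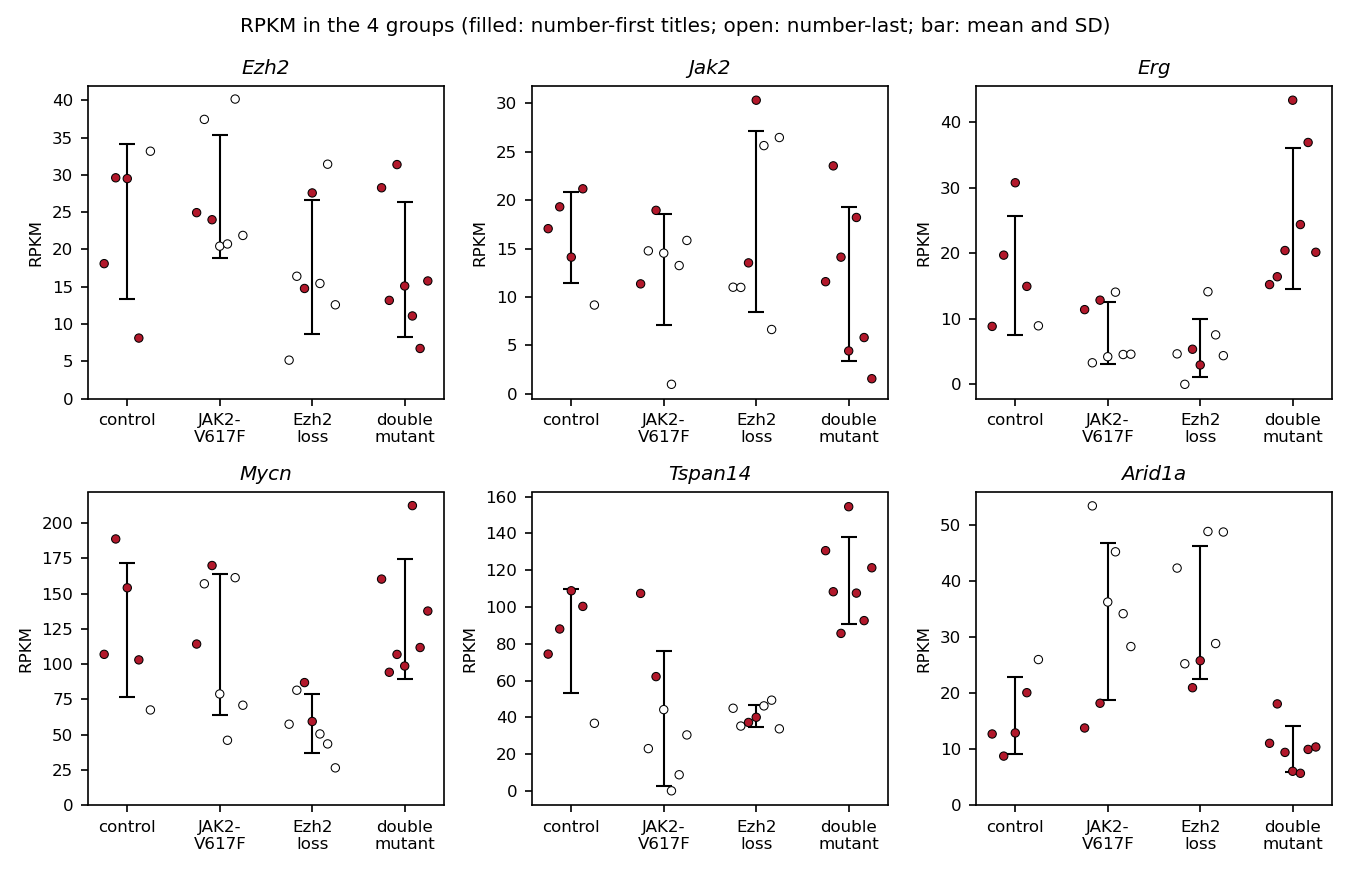
RPKM of Ezh2, Jak2, Erg, Mycn, Tspan14 and Arid1a in each library of the 4 groups (points; filled for number-first and open for number-last titles; bars show mean and SD; n = 5 for control and 7 for the others). Ezh2 and Jak2 overlap in all groups, Erg and Tspan14 have their highest mean in the double mutant, and Arid1a reaches its highest values in number-last libraries.

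The interaction asks whether JAK2V617F makes a different change in Ezh2-deficient than in control cells; it is the difference above minus that between JAK2V617F and control. In limma over all 26 libraries 224 genes passed (1.99%; 2142 at an unadjusted p under 0.05), and 82 of the 110 were among them. Both comparisons use the same double-mutant and Ezh2 loss libraries. Erg had an interaction of 3.28 (SE 0.70, adjusted p = 0.0159), Ifngr2 of 3.87 (SE 0.89, adjusted p = 0.0235) and Arid1a of -2.64 (SE 0.49, adjusted p = 0.0159). Mycn, at 1.38 (SE 0.44, adjusted p = 0.0784), did not pass. The control libraries are mostly number-first and the JAK2V617F libraries mostly number-last, so the interaction also follows title style: with style as a covariate 0 genes passed (694 unadjusted), and in number-first libraries alone 0 passed (734 unadjusted). Leaving out 1 library moved the count from 49 (without control replicate 3) to 650 (without control replicate 5).

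Promoters of the passing genes were searched for 2 motifs: the STAT site TTCNNNGAA, which reads the same on both strands, and the E-box CACGTG that MYC proteins bind. The 250 bases before each start site in RefSeq (GRCm38.p6) were available for 62 of the 83 rises, 14 of the 27 falls and 8410 of the tested genes. The STAT motif lay in 1 of 62 rises (1.61%), 2 of 14 falls (14.3%) and 618 of 8410 tested genes (7.35%). The E-box lay in 7 of 62 rises (11.3%), 3 of 14 falls (21.4%) and 858 of 8410 tested genes (10.2%). Of promoter windows of this length over all RefSeq genes, 7.02% held the STAT motif and 6.02% the E-box. The 3 sequences below show the single rise with the STAT motif (Ppp1r18, named for it), a fall with the same motif (Rplp0) and the rise with the largest difference among those described that holds an E-box (Supt16). Each is printed 5′ to 3′ on the gene's strand, with the motif in capitals, and a match describes letters only.
Ppp1r18 (chr17:35866365-35866614, plus strand): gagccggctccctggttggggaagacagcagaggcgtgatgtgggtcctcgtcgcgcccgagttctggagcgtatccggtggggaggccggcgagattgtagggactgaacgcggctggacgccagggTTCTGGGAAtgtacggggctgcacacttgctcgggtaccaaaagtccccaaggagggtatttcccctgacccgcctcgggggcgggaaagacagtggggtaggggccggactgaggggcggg
Rplp0 (chr5:115559217-115559466, plus strand): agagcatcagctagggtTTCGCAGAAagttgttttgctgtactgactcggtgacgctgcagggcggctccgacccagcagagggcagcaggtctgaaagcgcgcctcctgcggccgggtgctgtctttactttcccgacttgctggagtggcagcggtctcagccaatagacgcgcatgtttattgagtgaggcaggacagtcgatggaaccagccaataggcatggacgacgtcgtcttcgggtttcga
Supt16 (chr14:52197240-52197489, minus strand): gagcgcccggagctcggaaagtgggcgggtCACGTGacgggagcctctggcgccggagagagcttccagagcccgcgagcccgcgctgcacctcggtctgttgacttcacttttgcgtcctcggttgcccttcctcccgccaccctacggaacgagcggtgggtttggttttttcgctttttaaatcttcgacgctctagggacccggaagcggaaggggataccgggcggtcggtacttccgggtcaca
Ppp1r18, a regulatory subunit of protein phosphatase 1, was at 18.4 to 54.4 RPKM in the double mutant and 5.51 to 25.8 in Ezh2 loss (1.53, SE 0.35, adjusted p = 0.0412), with 0.61 and 1.90 against the 2 subsets.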

How the data were processed

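The authors deposited a table of RPKM values with 23416 genes and 1 column for each of the 26 libraries, and all columns matched a sample. The tools named in the submitters' processing notes are STAR (2.4.2a), Subread (1.5.0) and SAMtools (0.1.19), with the build mm10/GRCm38; settings, annotation and gene lengths are not stated there. Depth in reads was estimated from the whole-number steps of low RPKM values with GENCODE M21 exon lengths. Replicates are numbered in order of deposition.

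Genes with an RPKM of at least 1 in at least 5 of the 14 libraries were tested with limma 3.58.1 in R 4.3.3 (eBayes with trend and robust) on log2(RPKM + 1), two-sided, with Benjamini-Hochberg adjustment over all 11268 genes; every adjusted p in the text is from limma. A gene passed at an adjusted p under 0.05 with the same sign against both subsets of Ezh2 loss libraries. The interaction was fitted to all 26 libraries with 1 mean per group. The scripts were tested on simulated data.

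The members and the 36 gene lists were chosen with earlier results of these data known, so lists are described by counts and medians only, beside all tested genes. Of the lists, 1 (mitochondrially encoded genes) has no gene in the table. Markers of B cells, T and NK cells, mast cells and endothelium had 3, 3, 2 and 5 tested genes, and 0 passed. The monocyte and lymphoid priming lists, described above, had no passing gene. The other lists not described in the text also had none: MHC class II, inflammation, chaperone, G1 control, Hox, niche, BCL2 family, p53, cholesterol and myeloproliferative neoplasm genes. The MYC and ribosome biogenesis list had 1, Mycn. Named genes are Ezh2 and Jak2; the 12 rises and 12 falls that passed, with a mean of at least 5 RPKM in the higher group, with the largest smaller-of-both differences against the subsets, leaving out predicted genes, pseudogenes, microRNAs and small nucleolar RNAs; and up to 4 passing members of each list, or up to 3 that did not pass. Some genes that meet the rule are not reported here. Others are said to be named after their values were seen. The alternatives were other pseudocounts, filters, scalings (TMM by its published formula, quantile, TPM), limma settings, sets of libraries, covariates and leaving out each library.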

Additional observations from a re-analysis of the deposited data

Results flagged for a closer look

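Of 86 sets of 7 libraries checked for a single library far from the others, 8 held one. The limit used gives about 1 in 20 by chance for normally distributed values only, and values with a floor at 0 are not so distributed. In the Ezh2 loss group, 3 genes were listed at 0 in all libraries but 1: Prrg4 was at 0.180 RPKM in replicate 5, Podnl1 at 4.57 in replicate 1 and Spry4 at 0.138 in replicate 3. Eng was far below the others at 15.2 RPKM in Ezh2 loss replicate 1, and so was Snhg8 at 88.8 RPKM in replicate 4. In the double mutant, Ifngr2 stood apart at 68.8 RPKM in replicate 7, and Eif3k and Psme2 at 438 and 546 RPKM in replicate 3, a library with high neutrophil transcripts.

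For 29 named passing genes the change with JAK2V617F differed between Ezh2-deficient and control cells in the interaction test (limma, adjusted p under 0.05). These genes were chosen for their difference between double mutant and Ezh2 loss, which is itself a part of the interaction. The positive interactions, on the log2(RPKM + 1) scale, were Nek6 3.85, Ifngr2 3.87, Erg 3.28, Lrrc41 3.75, Tbc1d17 2.82, Kctd7 2.56, Gpr56 2.31, Pkm 1.35, Eng 1.89, Tspan14 3.29, Tacc1 1.94, Hdac1 2.53, Psme2 1.66 and Nr1h2 2.94. The negative ones among genes of protein synthesis were Rpl4 -1.34, Rps3 -1.28, Rplp0 -1.13, Eif3k -0.97, Eif3f -1.17, Eef1b2 -1.5 and Eef1a1 -0.79. The other negative ones were Rn45s -5.13, Lars2 -4.78, Uchl4 -4.23, Arid1a -2.64, Ptpn12 -1.89, Psmb4 -1.62, Snhg8 -1.56 and Uqcrh -0.93. With title style as a covariate none of the tested genes passed in limma (694 at an unadjusted p under 0.05). Several of the interactions above were then much nearer to 0: Uchl4 was at -0.01, Rpl4 at -0.22, Psmb4 at -0.40 and Gpr56 at 0.75. Erg was at 2.58 and Arid1a at -1.47, and Ifngr2, at 4.18, was farther from 0 than without the covariate.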

How the results depend on the processing

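Counts of passing genes depended on the processing. Against 110, the count was 27 with no filter on low values (16325 tested), 34 with eBayes without trend and robust, 200 with array weights, 0 in number-first libraries alone (938 unadjusted), 788 against the number-last Ezh2 loss libraries alone, 0 with title style as a covariate (915 unadjusted), 2 with the neutrophil covariate, 18 without double-mutant replicates 3 and 4, and 4 to 324 with each library left out in turn. It was 89 to 139 under the other pseudocounts, scalings, the stricter filter and the fit to all 26 libraries. Higher genes made up 75.5% of the calls, 69.5% after quantile normalization, which moved the median of all genes from 0.15 to -0.02. They made up 40% without double-mutant replicate 6 (2 of 5), 50% without replicate 2 or 7 (2 of 4 each) and with the neutrophil covariate (1 of 2), and 53.8% without replicate 4 (7 of 13). For the interaction, 224 became 147 with a pseudocount of 0.1, 147 with no filter, 797 with array weights, 0 with title style (694 unadjusted) or number-first libraries alone (734 unadjusted), and 49 to 650 with a library left out. The cause was not tested.

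Of 1226 values of 41 named passing genes under the alternatives, 591 kept their call, 635 kept their direction without passing and 0 reversed. The rule for passing had already fixed the direction against the number-first and the number-last Ezh2 loss libraries alone. The other alternatives reuse most of the same libraries, so the absence of reversals is no separate check. Ezh2, near 0 throughout, turned to 0.020 with TPM scaling, 0.13 against the number-last libraries, 0.012 with title style and 0.15 with the neutrophil covariate, and ran from -0.25 to 0.18 with a library left out, above 0 in 6 of these fits. With title style as a covariate Ccnd3 turned to -0.16 and Rac2, at 0.40 otherwise, to -0.0096. No paired analysis was possible because the 2 groups share only 1 title number. Depth limits the low genes: a value of 0 says only that no read was listed.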
